A study of Homo sapiens with 2 samples.

Results

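SOX genes encode transcription factors that share the HMG box, and 10 of them are described here: SOX17, the gene introduced into the cells, its closest relatives SOX7 and SOX18, and SOX4, SOX9, SOX11, SOX12, SOX13, SOX6 and SOX21. They were chosen by name, with earlier results of these data known. Every probe set that the platform annotation pairs with exactly 1 of these genes was kept, which gave 10 of 19775 named genes and 30 of the 54613 probe sets on each array that are not controls. The arrays measured RNA from KYSE170-luc, a luciferase-marked line of human esophageal squamous carcinoma cells, 12 h after transfection with a SOX17 expression plasmid or with an empty vector. Each condition had 1 array and no replicate, so every difference below is between 2 arrays and no p-value is given. Both cell populations carry the luciferase marker and both received a plasmid, and no untransfected cells and no share of transfected cells are given in the sources used here.

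The HMG box bends DNA through its minor groove at short sequences that contain ACAAT, read as ATTGT on the other strand. SOX proteins fall into subgroups by the likeness of this domain. SOX7, SOX17 and SOX18 form subgroup F and are known from endothelium, with SOX17 also required for endoderm. SOX4, SOX11 and SOX12 form subgroup C and act in progenitor cells. SOX9, of subgroup E, is known for cartilage and for epithelial progenitors, SOX6 and SOX13 belong to subgroup D, and SOX21 belongs to subgroup B, where it acts mainly as a repressor. SOX17 is also known to bind beta-catenin and to oppose Wnt signalling.

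The values are linear intensities in arbitrary units. A probe set was counted as measured where it lay at or above 95 on both arrays, 95 being the 60th percentile of all values. Of the 30 SOX probe sets 11 were measured, 1 reached 95 on the empty vector array only, and 18 stayed below it on both arrays. Of all 54613 probe sets that are not controls, 20064 were measured and 31051 were below 95 on both arrays. The SOX shares are close to these. A gene was represented by its brightest probe set, and on that rule 6 of the 10 genes were measured: SOX4, SOX6, SOX7, SOX9, SOX12 and SOX13. On the same rule 10034 of the 19775 named genes were measured. For SOX11, SOX17, SOX18 and SOX21 no probe set reached 95 on either array. Fold changes are given for measured probe sets only, with SOX17 over empty vector as the direction.

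**Figure D1:**
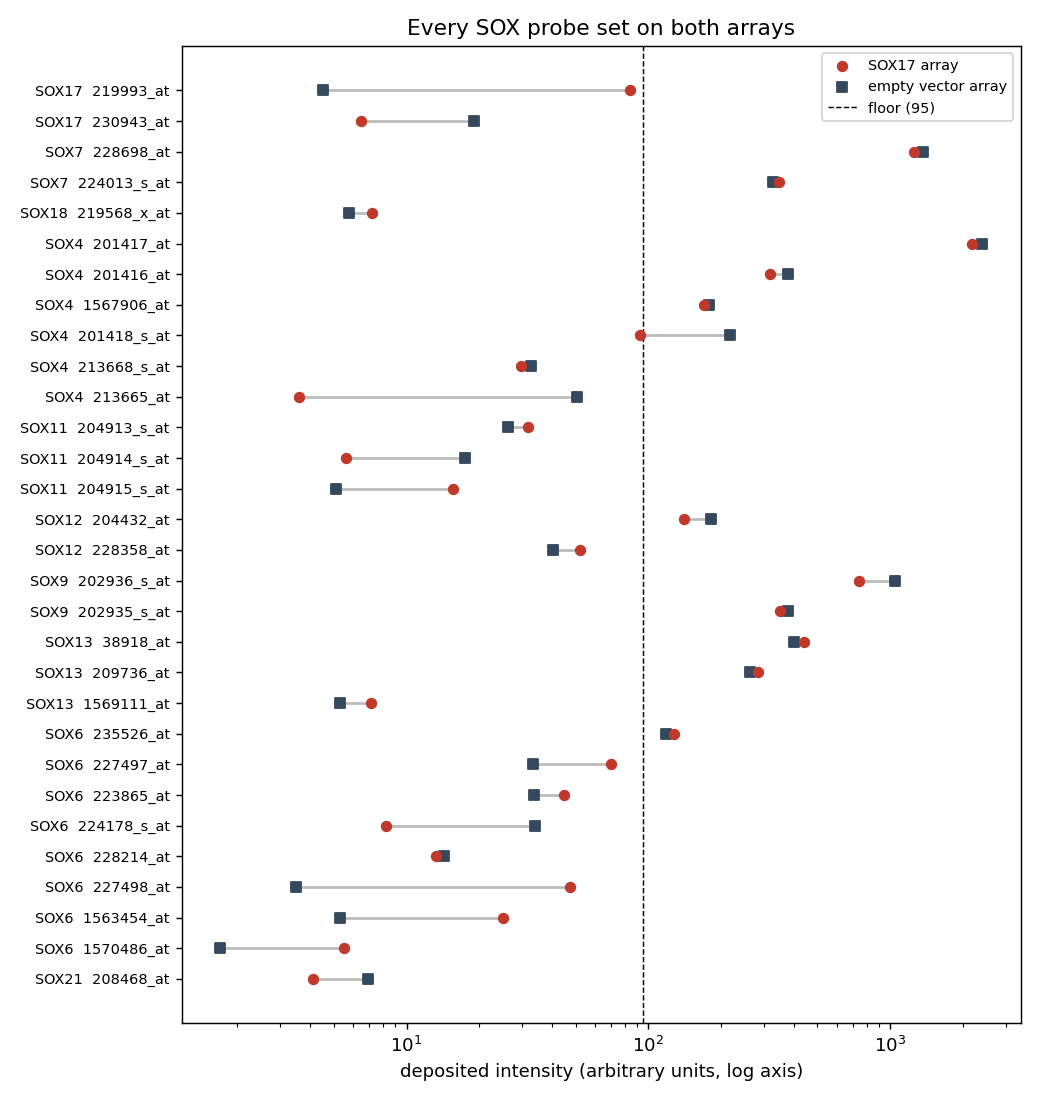
Intensity of each of the 30 SOX probe sets on the SOX17 array (circles) and on the empty vector array (squares), on a log axis in arbitrary units, with the floor of 95 as a dashed line and 1 value per array. Most wide gaps between the arrays lie left of the floor, and the 11 probe sets to the right of it on both arrays have their 2 values close together.

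None of the 6 measured SOX genes differed by 1.5-fold between the arrays. Of the 10034 genes measured in all, 3.78% were at least 1.5-fold higher and 3.19% at least 1.5-fold lower on the SOX17 array, and at 2-fold the shares were 0.419% higher and 0.329% lower. At those shares 0 of 6 is close to the background. SOX6 and SOX13 lay above 0 and SOX4, SOX7, SOX9 and SOX12 below it, against 54.6% of all measured genes above 0. The median log2 ratio of the 6 genes was -0.13, and that of all measured genes was 0.03.

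The error of 1 log2 ratio was estimated from pairs of measured probe sets of the same gene, and its SD was 0.39 in the lowest tertile of intensity, 0.31 in the middle and 0.22 in the highest. It covers differences between probe sets on these arrays and not the spread from culture to culture. Of the 11 measured SOX probe sets 1 lay at least 1 SD from 0, a SOX9 probe set, and 0 lay at least 2 SD from 0. Among all 20064 measured probe sets the shares were 34.2% and 6.76%.

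**Figure D2:**
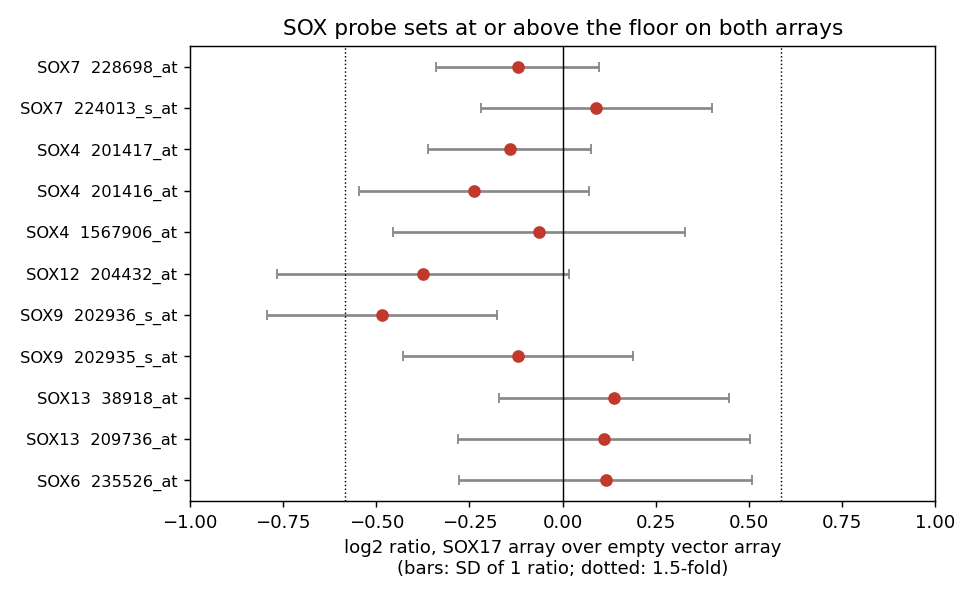
Log2 ratio, SOX17 over empty vector, for the 11 measured SOX probe sets, with bars of 1 SD of a ratio at that intensity tertile (from pairs of probe sets, not from replicates) and dotted lines at 1.5-fold. All 11 points lie between the dotted lines, and the bars of all but 202936_s_at of SOX9 cross 0.

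SOX17 itself was not measurable on either array. Probe set 219993_at read 83.8 on the SOX17 array and 4.5 on the empty vector array. Probe set 230943_at read 6.5 on the SOX17 array and 19.1 on the empty vector array. One is thus higher and the other lower on the array of the SOX17-transfected cells, and all 4 values are below the floor.

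Differences as wide as that of 219993_at were found elsewhere among dim probe sets. Of the 31051 probe sets below 95 on both arrays, 513 (1.65%) were higher on the SOX17 array by at least as much on the log2 scale, and 239 were lower by at least as much. Those counts go by the ratio alone, at any intensity below 95. At intensities like those of 219993_at there were fewer. Of the 31051, 1374 read 80 or more on the SOX17 array, and 98 of these read 10 or less on the empty vector array. The reverse pattern, 80 or more on the empty vector array and 10 or less on the SOX17 array, was found in 42. A probe set of SOX1, a gene of neural progenitors that was not transfected, read 83.1 on the SOX17 array and 7 on the empty vector array, close to the pattern of 219993_at, and was picked after its values were seen. The sources used here do not say whether the plasmid carries the sequence that either SOX17 probe set reads, and the labels are therefore not checked by these values.

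Of the relatives in subgroup F, SOX7 was measured on both of its probe sets. SOX7, which is known as an early regulator of endothelial and blood progenitors, read 1255 on the SOX17 array and 1364.8 on the empty vector array with probe set 228698_at (log2 ratio -0.12). With 224013_s_at it read 347.4 and 326.3 on the same arrays (log2 ratio 0.09). The probe sets disagree in sign, and both ratios are within 1 SD. SOX18, a regulator of lymphatic vessels, had 1 probe set, which read 7.2 on the SOX17 array and 5.8 on the empty vector array, far below the floor.

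The SOX7 signal was present while markers of endothelial cells were mostly dim. Of 12 endothelial markers 2 were measured, ERG and EGFL7, and 9 were below the floor on both arrays. CDH5 (VE-cadherin), an endothelial adhesion gene, read 3.8 on the SOX17 array and 39.4 on the empty vector array, and the VEGF receptor gene KDR read 23 and 24.8. ROBO4 reached the floor on the SOX17 array only, at 145.9 against 81.8 on the empty vector array. The brightest probe sets of the 12 markers summed to 646.1 on the SOX17 array and 606.2 on the empty vector array. Both arrays thus lacked CDH5 and KDR signal above the floor.

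SOX4 was the subgroup C gene with most probe sets, and each of its 6 read lower on the SOX17 array. SOX4 is known for its part in progenitor survival and is often raised in carcinomas. Its brightest probe set, 201417_at, read 2179 on the SOX17 array and 2405.3 on the empty vector array (log2 ratio -0.14). Probe set 201416_at read 319.6 and 376.9 (-0.24), and 1567906_at read 170.3 and 178 (-0.06). These 3 ratios are each within 1 SD of 0.

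The widest SOX4 gap at usable intensity was on 201418_s_at, at 92.2 on the SOX17 array and 217.2 on the empty vector array. Since 92.2 is just under the floor, the value is a bound, with the empty vector array at least 2.29-fold higher. Of the 14581 probe sets of 1 gene at 190 or more on the empty vector array, 0.322% were below the floor on the SOX17 array. That share takes in every intensity from 190 up, while 217.2 lies near that limit. It is therefore not a share among probe sets of like intensity, which was not counted, nor was the reverse direction. The other SOX4 probe sets were dim on both arrays, with 213668_s_at at 29.7 on the SOX17 array and 32.6 on the empty vector array, and 213665_at at 3.6 and 50.8. The 3 measured SOX4 probe sets, with ratios of -0.24 to -0.06, were all far from the size of the bound. Among 326 genes with 6 probe sets, 19 (5.83%) read lower on the SOX17 array on all 6, and 5 (1.53%) read higher on all 6.

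SOX12, a close relative of SOX4, was lower on its measured probe set and SOX11 was not measured. With 204432_at SOX12 read 140.3 on the SOX17 array and 181.9 on the empty vector array (log2 ratio -0.37), just under 1 SD at this intensity. Its other probe set, 228358_at, read 52 and 40.5, below the floor and in the opposite direction. SOX11, a gene of fetal neural and other progenitors, read 5.6 to 31.8 on the SOX17 array and 5.1 to 26.2 on the empty vector array over 3 probe sets, with 2 higher and 1 lower on the SOX17 array.

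The 250 bases upstream of the SOX4 and SOX12 transcription starts are shown because both genes read lower on the SOX17 array on their brightest probe set. SOX7 and SOX9 also read lower on their brightest probe set but had no entry in the promoter table. The SOX4 and SOX12 windows were taken from RefSeq (GRCh38.p14) and run 5′ to 3′. They lie on the plus strand at chr6:21593501-21593750 for SOX4 and chr20:325302-325551 for SOX12. Capitals mark the CCAAT box (CCAAT or ATTGG) and the octamer (ATGCAAAT or its reverse complement), the site of POU factors.
SOX4: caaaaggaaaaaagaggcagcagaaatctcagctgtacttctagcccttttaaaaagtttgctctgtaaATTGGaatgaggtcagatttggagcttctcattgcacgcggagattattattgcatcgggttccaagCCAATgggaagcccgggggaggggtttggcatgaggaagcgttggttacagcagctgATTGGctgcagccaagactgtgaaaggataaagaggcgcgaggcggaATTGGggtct
SOX12: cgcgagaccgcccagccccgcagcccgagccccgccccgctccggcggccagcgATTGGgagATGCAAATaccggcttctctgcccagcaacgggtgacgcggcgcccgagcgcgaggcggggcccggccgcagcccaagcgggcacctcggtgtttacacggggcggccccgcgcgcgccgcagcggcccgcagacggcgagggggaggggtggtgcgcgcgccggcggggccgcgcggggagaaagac
The SOX4 window held 4 CCAAT boxes, at 181, 114, 57 and 10 bases before the start, and 0.874% of all 35116 windows held at least as many. The SOX12 window held 1 CCAAT box at 196 bases and 1 octamer at 188 bases before the start. A CCAAT box was found in 32% of all windows and an octamer in 1.63%. Neither window held ACAAT or ATTGT, which 24.6% of all windows held. The motifs did not overlap in these windows, and a match is a match of letters and not a measured binding site.

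SOX9 had the lowest ratio among the measured SOX genes. SOX9 drives cartilage matrix genes and marks progenitors in several epithelia. Probe set 202936_s_at read 746.3 on the SOX17 array and 1044.2 on the empty vector array, 1.40-fold lower on the SOX17 array (log2 ratio -0.48, 1.57 SD). Probe set 202935_s_at read 348.6 and 378.8 (-0.12, 0.388 SD). Both were lower on the SOX17 array, as were both probe sets of 21.6% of the 5015 genes with 2.

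The first SOX9 ratio is not rare at its intensity. Among the 2006 measured probe sets in the same of 10 intensity bins, 10.9% lay as far from 0. For the other 10 SOX probe sets that share ran between 42.8% and 88.7%.

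**Figure D3:**
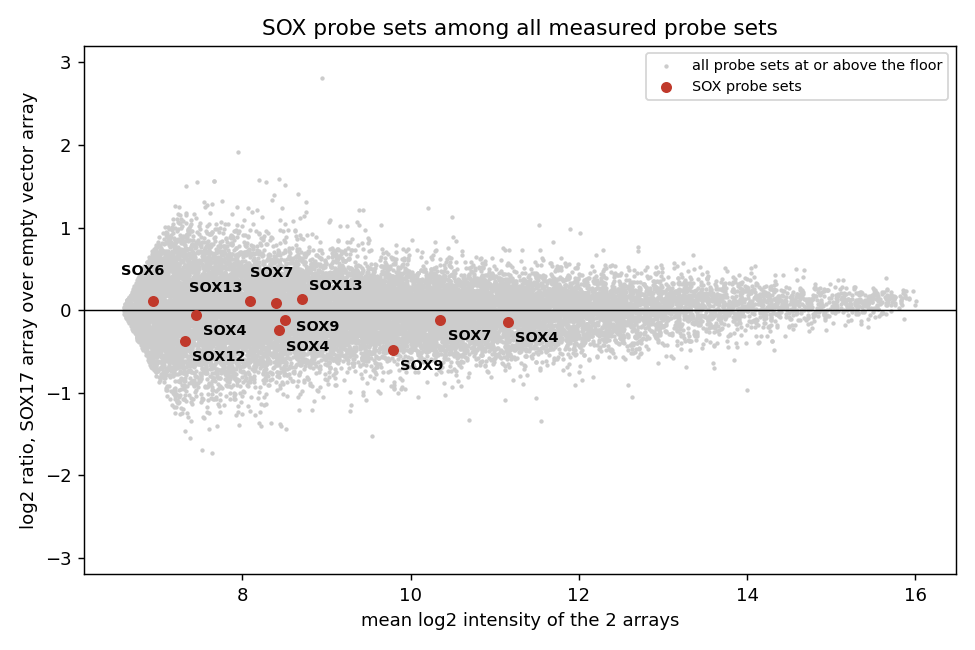
Log2 ratio, SOX17 over empty vector, against the mean log2 intensity of the 2 arrays, for all 20064 measured probe sets (grey) and the 11 measured SOX probe sets (red, with gene names). Every red point lies inside the grey cloud, and the SOX9 point at -0.48 is the lowest of them.

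The cartilage genes that SOX9 is known to activate together with SOX5 and SOX6 were nearly all dim. Of 13 listed genes, with SOX5 itself among them, 1 was measured and 11 were below the floor on both arrays. The measured gene was the collagen gene COL11A2, at 139.4 on the SOX17 array and 197.2 on the empty vector array (log2 ratio -0.50). COL2A1, the main collagen of cartilage, read 85.2 and 41.2, both below the floor.

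SOX13 and SOX6, the subgroup D genes, read slightly higher on the SOX17 array. SOX13 is known as an autoantigen in diabetes and as a partner of TCF proteins. With 38918_at it read 438.5 on the SOX17 array and 398.4 on the empty vector array (log2 ratio 0.14), and with 209736_at 283.2 and 262.3 (0.11). Its remaining probe set, 1569111_at, was dim at 7.1 and 5.3. All 3 were higher on the SOX17 array, as in 17.6% of the 2780 genes with 3 probe sets, and both measured ratios are within 1 SD.

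SOX6, which works with SOX9 in cartilage and represses genes in red blood cell precursors, was near the floor. Its measured probe set, 235526_at, read 127.8 on the SOX17 array and 118 on the empty vector array (log2 ratio 0.12, within 1 SD). The other 7 probe sets were below the floor, between 5.5 and 70.1 on the SOX17 array and between 1.7 and 33.9 on the empty vector array. The widest of these gaps was on 227498_at, at 47.5 and 3.5. Of all 8 SOX6 probe sets 6 were higher on the SOX17 array and 2 lower. Among all 31051 probe sets below the floor on both arrays, 55.5% were higher on the SOX17 array.

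The upstream windows of SOX13 and SOX6 are shown beside those of SOX4 and SOX12 because SOX13 and SOX6 read higher on the SOX17 array. On their brightest probe sets each of these genes was within 1 SD of 0. A link between the motifs and the ratios was not tested. The SOX13 window (chr1:204072865-204073114, plus strand) held none of the motifs searched. RefSeq gave 5 starts for SOX6, and the window of the most upstream start (chr11:16738478-16738727, minus strand) is printed, both in GRCh38.p14 and 5′ to 3′, with ACAAT in capitals.
SOX13: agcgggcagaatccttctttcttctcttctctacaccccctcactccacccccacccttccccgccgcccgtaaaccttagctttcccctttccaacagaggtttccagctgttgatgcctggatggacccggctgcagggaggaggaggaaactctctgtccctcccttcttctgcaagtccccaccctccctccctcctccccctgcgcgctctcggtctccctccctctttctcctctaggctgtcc
SOX6: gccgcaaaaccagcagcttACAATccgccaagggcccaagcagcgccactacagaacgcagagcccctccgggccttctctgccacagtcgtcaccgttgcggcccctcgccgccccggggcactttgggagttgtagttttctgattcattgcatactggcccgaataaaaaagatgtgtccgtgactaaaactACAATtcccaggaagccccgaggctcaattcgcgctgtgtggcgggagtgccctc
The SOX6 window held ACAAT at 231 and at 55 bases before the start. The motif was on 1 strand or the other in 5 of 5 SOX6 windows and in 24.6% of all windows. The printed window had a GC content of 58.8% and the other 4 had 27.2% to 40.8%, against a median of 58% over all windows. A TATA box (TATAAA or its reverse complement TTTATA, which can overlap) was in neither printed window, in 3 of the 5 SOX6 windows and in 10.7% of all windows. Of the 10 genes 5 had an entry in the promoter table, and the fifth, SOX21, held no ACAAT.

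SOX21, the last of the 10, was dim. SOX21 is known from neural progenitors and from hair and other epithelia. Its 1 probe set, 208468_at, read 4.1 on the SOX17 array and 6.9 on the empty vector array. Over all 18 SOX probe sets below the floor on both arrays, the SOX17 array read higher on 11 and lower on 7. The share higher is thus 61.1%, close to the 55.5% of all 31051 such probe sets.

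Among the 9 SOX genes outside the 10, SOX2 and SOX15 were measured. SOX2, which maintains the basal cells of the esophagus, read 1488.9 on the SOX17 array and 1231.9 on the empty vector array with 228038_at (log2 ratio 0.27), and SOX15 read 1272.6 and 1091.5 with 206122_at (0.22). The other measured probe set of SOX15, 217040_x_at, read 228.9 on the SOX17 array and 156.4 on the empty vector array (0.55, 1.40 SD), a wider ratio than that of any measured probe set of the 10 genes. The other measured probe set of SOX2, 213721_at, read 233.2 and 218.6 (0.09), while 214178_s_at read lower on the SOX17 array, at 68.2 against 99.1 on the empty vector array, and 213722_at was dim at 7.8 and 12.1. The other 7 genes, SOX1, SOX3, SOX5, SOX8, SOX10, SOX14 and SOX30, were below the floor on both arrays.

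Of the TCF and LEF factors, HMG-box proteins of the Wnt pathway to which SOX17 is known to be opposed, TCF7L2 was measured. Its 5 measured probe sets ran from -0.39 to 0.36 in log2 ratio. The brightest read 2833.8 on the SOX17 array and 3711.7 on the empty vector array (-0.39). TCF7L1 read 102.5 and 50.6, and the 3 probe sets of LEF1 read 6.4 to 26.9 on the SOX17 array and 8.1 to 86.9 on the empty vector array.

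Partner proteins, cofactors and modifiers of SOX factors were mostly bright. Of 14 with a probe set 10 were measured, 2 above 0 and 8 below (median log2 ratio -0.18), against 54.6% of all measured genes above 0 and a median of 0.03. These counts use the brightest probe set of each gene. Measured probe sets lay on both sides of 0 for CREBBP (-0.20 to 0.43), PIAS1 (-0.20 to 0.25) and KPNB1 (-0.47 to 0.09). Those of CTBP2 lay below 0 (-0.16 to -0.01), and IPO8 and SDCBP had 1 each. The beta-catenin gene CTNNB1 lay above 0 on its 3 measured probe sets (0.18 to 0.48). FBXW7, the ubiquitin ligase subunit known to mark SOX9 for breakdown, was the 1 member past 1.5-fold, at 652.9 on the SOX17 array and 1099.5 on the empty vector array (-0.75). Its 3 probe sets ran from -0.75 to 0.03. Of all measured genes 3.19% were at least 1.5-fold lower. The acetyltransferase gene EP300 had a log2 ratio of -0.53, and its 2 measured probe sets ran from -0.53 to -0.11. The deacetylase gene HDAC1 had a log2 ratio of 0.31.

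By their brightest probe set, no measured known target of the subgroup C or F factors was past 1.5-fold. Of all measured genes 3.78% were at least 1.5-fold higher and 3.19% at least 1.5-fold lower, and 54.6% lay above 0. At those shares a count of 0 among so few targets is close to the background. Of 10 targets of SOX4, SOX11 or SOX12, 6 were measured, 3 above 0 and 3 below (median log2 ratio -0.05). STMN1, which destabilises microtubules, had a log2 ratio of 0.54 and the semaphorin SEMA3C of -0.54. The other measured probe set of SEMA3C lay at -0.65, past 1.5-fold lower. Of 15 targets of the subgroup F genes 5 were measured, 1 above 0 and 4 below (median -0.19). The receptor NOTCH1 was at -0.49, the protease MMP7 at 0.34, the cyclin CCND1 at -0.20 and GATA6 at -0.19. COL4A6, counted as below, was almost unchanged at -0.004, and its 2 measured probe sets ran from -0.004 to 0.02.

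The label of a squamous line was borne out by its markers, since 10 of 10 squamous markers with a named probe set were measured. KRT14, a keratin of basal squamous cells, read 1814.3 on the SOX17 array and 1509.7 on the empty vector array. Of 10 fibroblast markers 1 was measured, of 6 leukocyte markers 1 and of 8 chondrocyte markers 1. The red cell gene HBB read 131.3 on the SOX17 array and 74.7 on the empty vector array. Both arrays had been scaled to a common trimmed mean of 500.1. Poly-A spike-in transcripts read higher on the SOX17 array in 24 of 24 cases (median log2 ratio 0.57), and hybridisation spike-ins had a median of 0.11. Their part in the SOX values was not tested.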

How the data were processed

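RNA from KYSE170-luc cells was measured on 2 Affymetrix arrays, 1 per transfection. The authors deposited 1 linear intensity for each probe set on each array. GCOS produced these intensities, per the submitters' processing notes, with the algorithm, version and detection calls not given in the sources used here. Values were used as deposited. Each array had 54675 probe sets, including 62 controls, and 41091 were paired with 1 gene by GEO's platform annotation. Of 123 listed symbols 109 had such a probe set, and 0 needed an update against RefSeq.

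Log2 ratios were SOX17 over empty vector. With 1 array per group no test was possible, and precision is limited by that number. The bound for 1 dim array is the brighter intensity over the floor, given from 2 times the floor. The SD of a ratio is that of the difference between 2 probe sets of a gene over the square root of 2 (11443 pairs in 4574 genes). Like-level shares used 10 bins.

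All 10 genes and all their probe sets are named, as are measured SOX and TCF/LEF genes and up to 3 genes of largest absolute ratio per target or partner list. Other genes were named after their values were seen. The members and lists were chosen with earlier results of these data known. The shares of genes whose probe sets all point one way, the dim comparison and the promoter motifs were added after the values were seen. Alternatives were 3 scalings, 3 floors, an added 50, the mean over probe sets, no _x_at or _s_at probe sets, 2-fold and 20 bins. Python 3.11.15, numpy 2.4.6, pandas 2.3.3 and statsmodels 0.14.6 were used, and the code was tested on simulated data.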

Additional observations from a re-analysis of the deposited data

How the results depend on the processing

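The 44 values that the 11 measured SOX probe sets took under the 3 scalings and with 50 added each moved by less than 1 SD of a ratio and kept their sign. A floor, or leaving out _x_at and _s_at probe sets, cannot change the ratio of a single probe set. The number of SOX genes at least 1.5-fold higher or lower was 0 under each alternative except the absence of a floor, where 1 was higher (SOX17, on 219993_at) and 1 lower (SOX21), both from intensities below 95, and where 10 genes and 30 probe sets counted as measured by construction. With the floor at the 75th percentile (an intensity of 312) 7 SOX probe sets were measured. The median log2 ratio of the measured SOX genes lay between -0.14 and -0.10 under the 3 scalings, was -0.08 with the mean over probe sets and -0.003 without a floor. Over all genes, 379 were at least 1.5-fold higher and 320 lower as reported, 670 and 477 with the floor at the 50th percentile, 108 and 135 at the 75th, 4238 and 2880 without a floor, and 227 and 211 with 50 added to both intensities. No paired analysis was possible because each group had 1 array. Without replicates no SOX difference can be set against the spread between cultures, and for SOX11, SOX17, SOX18 and SOX21 the signal was too near background to give a fold.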
